A study of Homo sapiens with 49 samples.

Results

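The genes described here were 7 keratin genes, KRT7, KRT8, KRT18, KRT19, KRT15, KRT13 and KRT17, out of 20098 protein-coding genes on chromosomes 1 to 22 and X. They were chosen by name after the peaks, covered lengths and fold enrichments of these same lists had been seen, so the values at these genes are given as a description and none of them was tested. Each gene was read over a window of its annotated body with 20 kb on either side. Chromatin immunoprecipitation with sequencing (ChIP-seq) was carried out in Ishikawa cells, a line from an endometrial adenocarcinoma, and in T-47D cells, a line from a ductal carcinoma of the breast, which had received either DMSO as vehicle or 10 nM of estradiol (E2). Treatment lasted 1 h for JUN, LSD1, MAX, MYC, RARA, TAF1 and, in T-47D alone, RNA polymerase II (RNAPII), and 8 h for the histone marks H3K4me3, H3K4me1 and H3K27me3; SIN3A was mapped in Stripped Media and in Full Media, and H3K36me3 once, in Ishikawa cells in Full RPMI. Both lines were held in hormone-depleted medium before E2 or DMSO. There were 45 peak lists, 21 from Ishikawa and 24 from T-47D, and each group was 1 library except RNAPII, with 2 libraries per treatment, so the RNAPII libraries gave the only replicate spread. Each line is 1 tumour-derived line, and differences between them cannot be told apart from differences between any 2 lines.

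Keratins form the intermediate filaments of epithelial cells as obligate pairs of a type II and a type I protein. KRT7 and KRT8 are type II, and KRT18, KRT19, KRT15, KRT13 and KRT17 are type I. KRT8 with KRT18 is the founding pair of simple epithelia such as uterine glands and the luminal layer of the breast, and KRT7 and KRT19 join it there. KRT15 and KRT17 belong to basal cells of stratified epithelia, KRT17 also to stressed or injured epithelium, and KRT13 to the suprabasal layers of non-cornified mucosa, so these 3 are not simple-epithelial keratins in textbook usage. The type II genes and KRT18 lie on chromosome 12 and the other type I genes on chromosome 17.

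The grouping under 1 name was only partly borne out by the lists. H3K4me3, the mark of active and poised promoters, lay within 250 bp of an annotated transcript start of KRT7, KRT8, KRT18 and KRT19 in all 4 H3K4me3 lists. KRT15 had such a peak in both Ishikawa lists but only at an alternative start, and KRT13 and KRT17 had none in any list. That came to 5 of the 7 genes in Ishikawa under DMSO, where 67.3% of all protein-coding genes had such a peak, and to 4 of the 7 in T-47D under DMSO, where 62.1% did. The shares over all genes were therefore close to those of the set. Taken at the main start alone, which is the start of the MANE Select reference transcript, the count was 3 in both Ishikawa lists (KRT8, KRT18 and KRT19), 3 in T-47D under DMSO (KRT7, KRT8 and KRT19) and 2 in T-47D under E2 (KRT8 and KRT19).

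As a check of the lines, GATA3, FOXA1, SPDEF, XBP1 and TFF1 stood for luminal breast cells and PAX8, SOX17, EMX2, HOXA10 and MSX1 for endometrial cells. Of the luminal genes, 4 of 5 had an H3K4me3 promoter peak in T-47D under DMSO and 2 of 5 in Ishikawa; TFF1 had none in either line. Of the endometrial genes, 4 of 5 had one in Ishikawa and 1 of 5, MSX1, in T-47D. VIM, the intermediate filament gene of mesenchymal cells, had one in both lines.

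The lists ranged from 2 to 46282 peaks. They held 792 peaks in the keratin windows, 365 in Ishikawa and 427 in T-47D, out of 528044 in all, and 12 lists held none there. Read depth was not given in the lists, and the number of peaks called rises with depth and with the strength of the immunoprecipitation. The length of each list is therefore given beside each comparison. Both T-47D JUN lists stood apart from the Ishikawa JUN lists. Of their peaks, 87.2% under DMSO and 89.8% under E2 overlapped a peak of RNAPII DMSO replicate 1, against 44.1% and 53.7% of the Ishikawa JUN peaks. With the shorter list of RNAPII DMSO replicate 2 it was 12635 of 28703 and 10620 of 24885 peaks in T-47D and 1175 of 3768 and 6785 of 18311 in Ishikawa. The AP-1 pattern TGANTCA, with any base at N, was searched on both strands within 100 bp of each summit. It was present at 4.98% and 3.41% of T-47D JUN summits but at 22.8% and 17.1% of Ishikawa JUN summits. At the keratin windows 38 of 42 and 34 of 34 T-47D JUN peaks overlapped RNAPII DMSO replicate 1, and 27 of 42 and 24 of 34 overlapped replicate 2. Whether these 2 lists hold JUN was not tested, so their values stand for the T-47D libraries labelled JUN wherever they are given.

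JUN is a subunit of AP-1, whose consensus site is TGAGTCA, read as TGACTCA on the other strand. The pattern searched, TGANTCA, also takes TGAATCA and TGATTCA, so the AP-1 counts and shares given here include those. Of the AP-1 matches in the windows, 4 lay within 100 bp of a JUN summit in more than 1 list. They are shown because JUN peaks of separate libraries had their summits near them, at 17 to 92 bp. All are from GRCh37, plus strand, and the capitals mark the match. The KRT7 sites are at chr12:52637263-52637329 and chr12:52641291-52641357, the KRT18 site at chr12:53343689-53343755 and the KRT15 site at chr17:39673235-39673301. Distances run from the main start in the direction of transcription.
KRT7 +10.27 kb: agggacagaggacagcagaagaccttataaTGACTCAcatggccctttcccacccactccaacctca
KRT7 +14.29 kb: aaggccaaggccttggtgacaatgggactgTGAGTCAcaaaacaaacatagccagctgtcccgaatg
KRT18 +0.82 kb: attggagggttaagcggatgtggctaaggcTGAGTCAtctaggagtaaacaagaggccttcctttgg
KRT15 +1.88 kb: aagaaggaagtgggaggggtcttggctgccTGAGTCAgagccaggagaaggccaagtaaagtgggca

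The KRT7 site at +14.29 kb, in an intron, was near the summit of JUN peaks in Ishikawa under DMSO, in Ishikawa under E2 and in T-47D under DMSO. The fold enrichments of the peaks over it were 13.6, 31.6 and 21.9 in that order, and 15.1 in T-47D under E2. Peaks over this site were present in 20 of the 45 lists, 13 from Ishikawa and 7 from T-47D. The KRT18 site at +0.82 kb lay in an exon of a non-coding transcript, inside the region where the KRT18 and KRT8 records overlap. JUN peaks over the KRT18 site had fold enrichments of 12.8 under DMSO and 10.7 under E2 in Ishikawa and of 20.1 and 44.9 in T-47D, where the summits lay farther off, and 19 lists had a peak over it. The KRT7 site at +10.27 kb had a peak in 22 lists, 14 from Ishikawa and 8 from T-47D. The KRT15 site at +1.88 kb had peaks in T-47D alone, in 6 lists, all of JUN or RNAPII. No Ishikawa list reached the KRT15 site.

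AP-1 matches near the summit were found in 3 of 10 keratin-window JUN peaks of Ishikawa under DMSO and in 7 of 34 under E2. The E2 share was 20.6%, beside 22.8% and 17.1% over the whole lists. Among the 3 under DMSO, the match at KRT17 was TGATTCA. In T-47D they were found in 5 of 42 and 3 of 34, or 11.9% and 8.82%, beside 4.98% and 3.41% over the whole lists. Full estrogen response elements and DR5 retinoic acid response elements, searched in the same way on both strands, were at no summit of any JUN list in the windows. Over all summits of Ishikawa JUN under E2 they were at 0.311% and 0.027%. The letters searched are a description, and no match says only that these letters were not in that stretch.

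**Figure D1:**
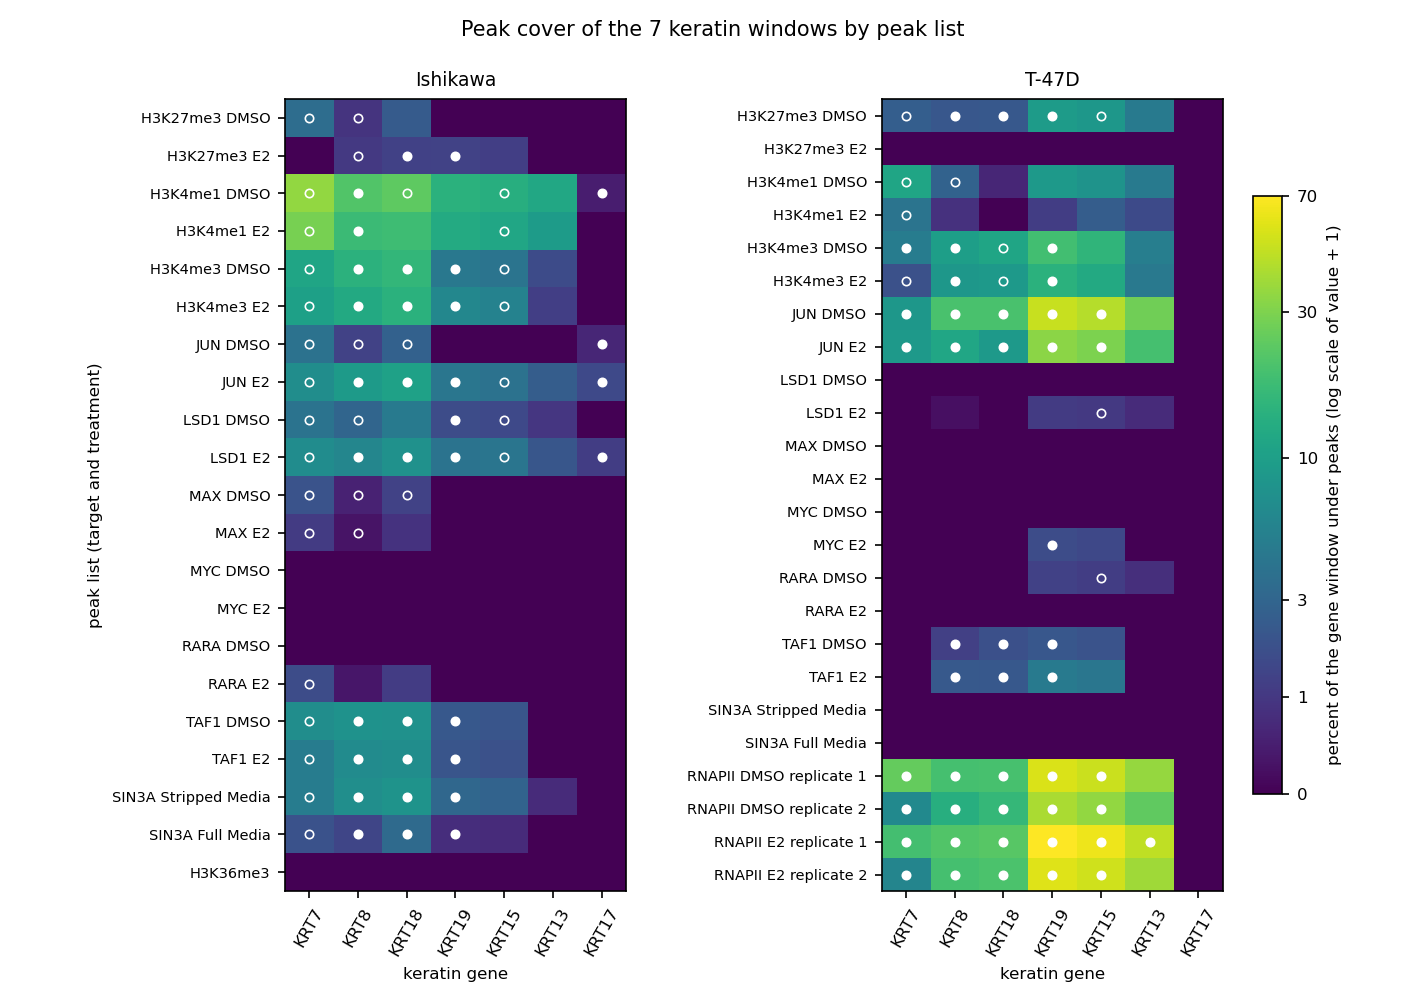
Percent of each gene window under peaks (colour, log scale of the percent + 1) for the 7 keratin genes in each of the 45 peak lists, with Ishikawa on the left and T-47D on the right; filled white circles mark a peak within 250 bp of the main start and open circles a peak at another annotated start only. The KRT17 column is dark throughout T-47D, and the brightest cells are those of KRT19, KRT15 and KRT13 in the T-47D RNAPII and JUN lists, up to 69.2% for KRT19 in RNAPII E2 replicate 1.

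KRT7 is annotated on the plus strand at chr12:52626304-52645970 and is expressed in ductal and glandular epithelium. The lines differed in where its peaks lay. No peak of the 21 Ishikawa lists came within 250 bp of the main start of KRT7, although 16 lists had a peak at another of its 13 annotated starts. In T-47D 7 of 24 lists had a peak at the main start, namely H3K4me3 under DMSO, both JUN lists and all 4 RNAPII lists. RNAPII was not mapped in Ishikawa, and the T-47D JUN lists largely overlapped RNAPII. Except for H3K4me3 under DMSO, this contrast cannot be told apart from a difference in the targets mapped. RNAPII fold enrichment there was 42.7 and 9.14 under DMSO and 19.3 and 9.83 under E2, so the treatments overlapped.

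In Ishikawa the peaks of KRT7 gathered instead at places that many antibodies shared. A position at +10.3 kb was covered by 16 Ishikawa lists of 9 targets, a position at +14.2 kb by 13 lists of 7 targets and one at −15.8 kb, in an intron of the long non-coding gene LINC00592, by 13 lists of 8 targets. The same positions were covered by 7, 9 and 7 T-47D lists. A position at −19.5 kb was covered by 11 Ishikawa lists of 8 targets and by 5 T-47D lists. Such shared positions were not particular to KRT7. One at +21.4 kb of KRT18 was covered by 14 Ishikawa lists of 8 targets, and one at −2.16 kb of KRT8 by 13 lists of 7 targets. The H3K4me3 peak across +10.3 kb had a fold enrichment of 18.3 under DMSO and 32.4 under E2, and that of TAF1, the largest subunit of the general initiation factor TFIID, had 25.2 and 14.9. The highest peak of the KRT7 window in Ishikawa was SIN3A in Stripped Media at −15.8 kb, at 33.6-fold, and in T-47D it was RNAPII DMSO replicate 1 at +16.0 kb, at 50.8-fold. SIN3A is the scaffold of a histone deacetylase complex.

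H3K4me1, the mark of enhancers, covered more of the KRT7 window than of any other keratin window in both lines. In Ishikawa it covered 34.4% under DMSO and 28.6% under E2, and in T-47D 11.2% and 4.12%. The 3′ part of the window also holds the start of the KRT86 record and the pseudogenes KRT87P and KRT88P, so peaks there cannot be assigned to KRT7 alone.

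**Figure D2:**
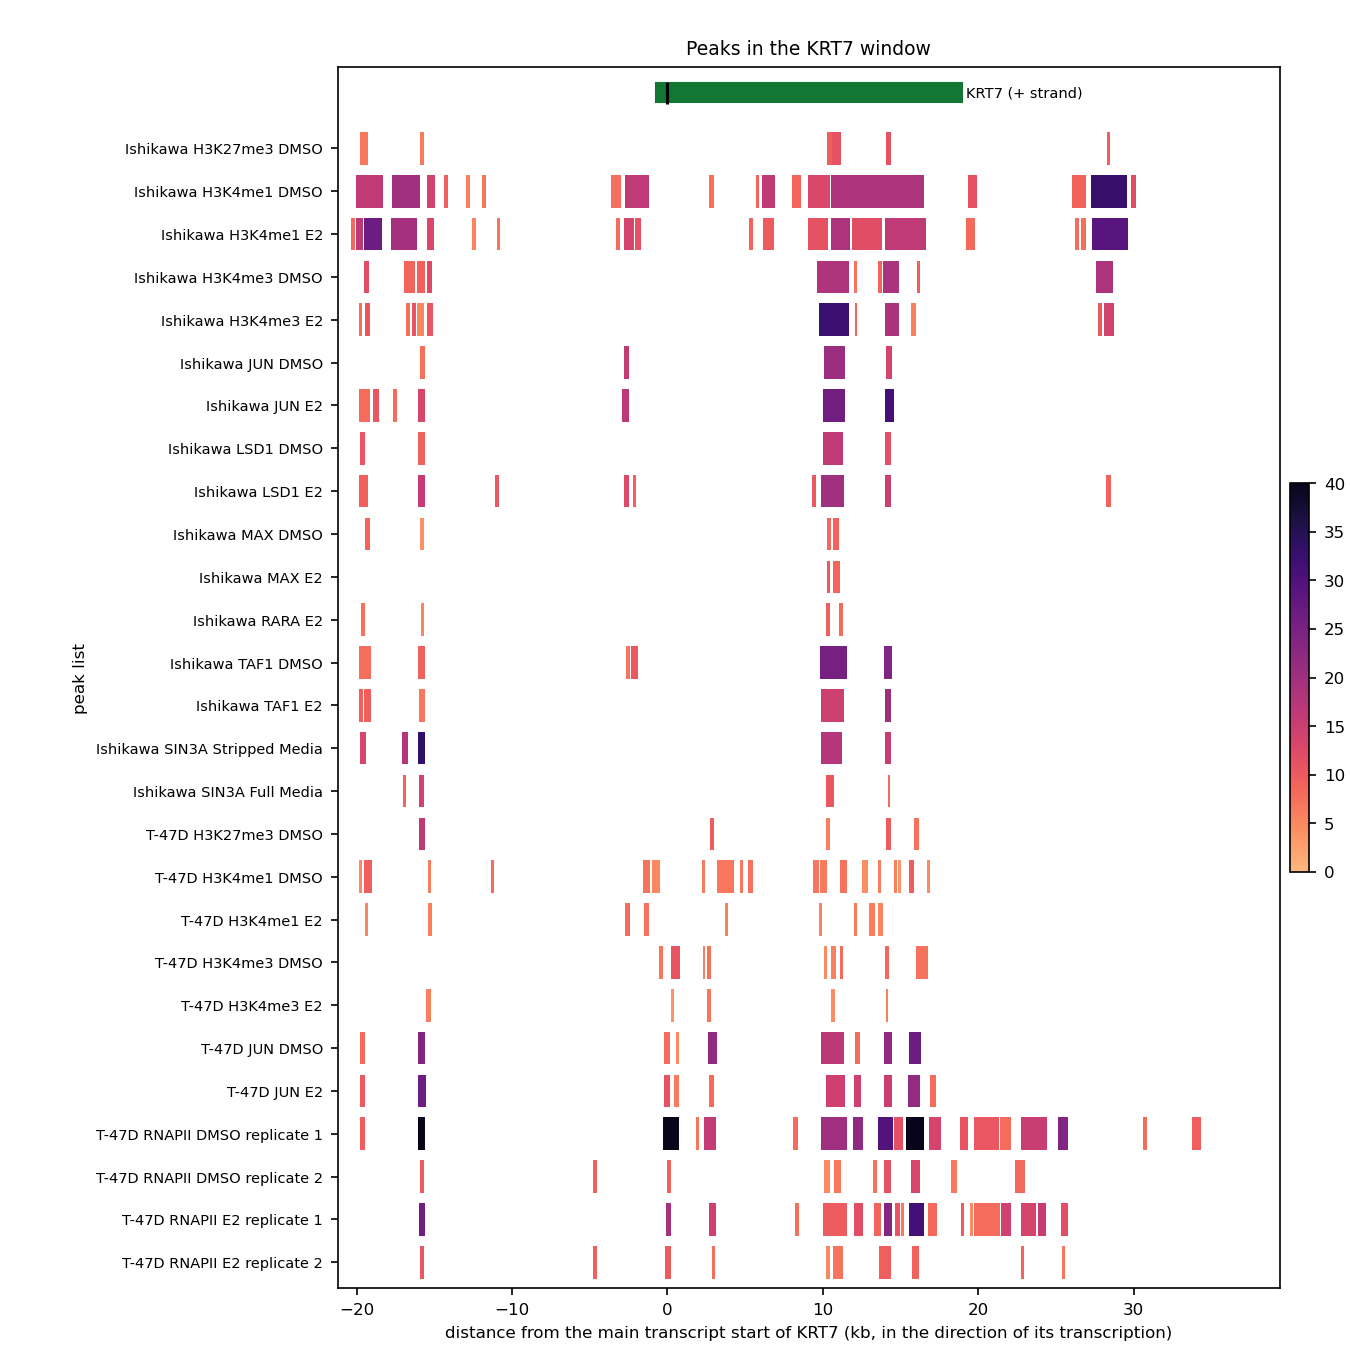
Peaks in the KRT7 window in every list that had one, by distance from the KRT7 main start (kb); each bar is 1 peak drawn to its width and coloured by fold enrichment, the green bar is the gene record and the black tick its main start. Ishikawa rows line up at −15.8, +10.3 and +14.2 kb and are empty at the main start, whereas the RNAPII and JUN rows of T-47D are filled there. RNAPII was mapped in T-47D alone.

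KRT8 and KRT18 lie head to head on chromosome 12, KRT8 on the minus strand at chr12:53290971-53343738 and KRT18 on the plus strand at chr12:53342655-53346690. The KRT8 record is long because its outermost start lies inside KRT18, so some starts of KRT8 and KRT18 share peaks, and KRT8 is best read at its main start. Both genes have many processed pseudogenes, and reads that could be placed at more than 1 site were discarded, so signal over their exons is less certain. Both main starts carried TAF1 in every TAF1 list. At the KRT8 main start the TAF1 fold enrichment was 27.8 under DMSO and 23.1 under E2 in Ishikawa and 8.85 and 14.9 in T-47D. At the KRT18 main start it was 19.1 and 12.7 in Ishikawa and 14.7 and 13.6 in T-47D. The E2 value was thus the lower one at both genes in Ishikawa and at KRT18 in T-47D, and the higher one at KRT8 in T-47D, with 1 library per group.

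Among the members H3K4me3 had its highest fold enrichment at this pair. The peak over KRT18 was 38.0-fold and 2000 bp wide under DMSO and 36.9-fold and 1901 bp wide under E2 in Ishikawa. In T-47D it was 18.9-fold and 3088 bp wide under DMSO and 16.8-fold and 2612 bp wide under E2. The T-47D peak began downstream of the start and its summit lay 0.63 kb into the gene, so that it missed the 250 bp around the main start. At KRT8 the H3K4me3 peak next to the main start was 36.8-fold under DMSO and 21.9-fold under E2 in Ishikawa and 17.7-fold under both in T-47D.

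Across all genes, TAF1 promoter peaks under DMSO were found for 59.9% in Ishikawa and 23.0% in T-47D. Of the 7 keratins, 4 had one in Ishikawa (KRT7, KRT8, KRT18 and KRT19) and 3 in T-47D (KRT8, KRT18 and KRT19), and the counts were the same under E2. The gene that differed was KRT7, whose window held 6 and 5 TAF1 peaks in Ishikawa and none in T-47D. Its Ishikawa promoter peaks of TAF1 lay at an alternative start only. At the main start the same 3 genes, KRT8, KRT18 and KRT19, had TAF1 in both lines. The T-47D TAF1 lists were shorter, with 4591 and 5645 peaks against 19349 and 16554.

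A further start of KRT8, about 21 kb upstream of the main one, was the only member start held in the RefSeq promoter table given (GRCh38.p14); KRT7, KRT18, KRT19, KRT15, KRT13 and KRT17 had no entry. The 250 bases before that start matched GRCh37 once, at chr12:53320254-53320503 on the minus strand, and are shown because 15 lists had a peak over the promoter they belong to. Of these lists 13 were from Ishikawa, among them MAX under both treatments, and the 2 T-47D lists were JUN under DMSO and RNAPII E2 replicate 1.
KRT8 upstream start: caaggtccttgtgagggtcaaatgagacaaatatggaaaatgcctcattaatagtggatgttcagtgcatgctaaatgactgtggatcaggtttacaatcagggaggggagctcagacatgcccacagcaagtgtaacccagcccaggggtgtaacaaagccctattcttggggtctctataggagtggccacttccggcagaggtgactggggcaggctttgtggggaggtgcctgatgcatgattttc

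**Figure D3:**
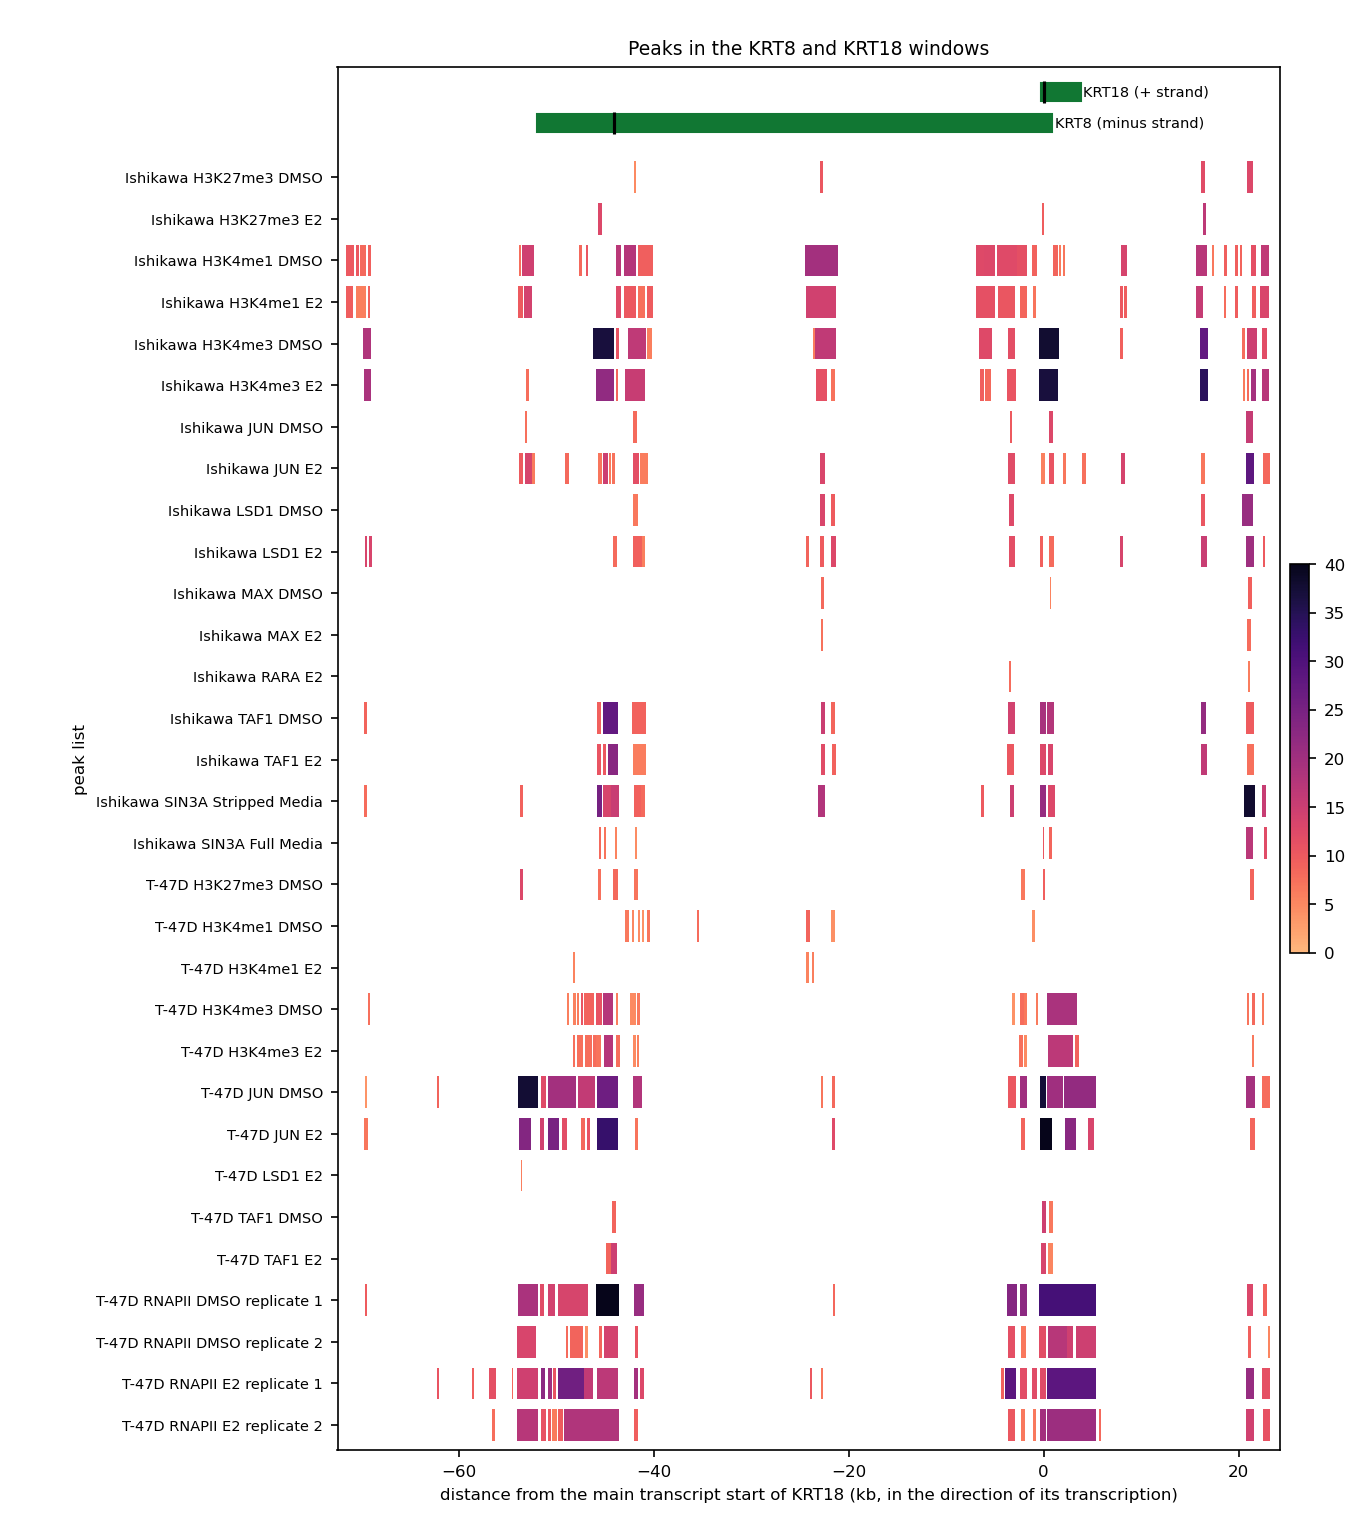
Peaks in the joined KRT8 and KRT18 windows in every list that had one, by distance from the KRT18 main start (kb), drawn and coloured as in the KRT7 map. The bars over the KRT18 body are wide in the T-47D RNAPII rows and narrow in the Ishikawa TAF1 and JUN rows, and a group of Ishikawa peaks near −23 kb marks the upstream KRT8 start, which has 2 T-47D lists.

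KRT19, KRT15 and KRT13 stand side by side on the minus strand of chromosome 17, at chr17:39679869-39684560, chr17:39669997-39678781 and chr17:39657233-39661957. KRT19 is the smallest keratin and lacks the usual tail domain. At the KRT19 start H3K4me3 was 23.1-fold and 20.2-fold in Ishikawa and 9.92-fold and 10.6-fold in T-47D, under DMSO and E2. TAF1 there was 17.7-fold and 13.6-fold in Ishikawa and 12.2-fold and 10.0-fold in T-47D. Although H3K4me3 and TAF1 were of lower fold enrichment in T-47D, more of the window was under H3K4me3 there. It covered 18.5% of the KRT19 window under DMSO and 14.1% under E2 in T-47D, against 4.56% and 6.18% in Ishikawa.

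The order of the genes by the percent of window covered differed between the lines. In Ishikawa KRT18 came first in 8 lists, KRT7 in 7, and KRT8 and KRT19 in 1 each, among 17 lists with any keratin peak. In T-47D KRT19 came first in 14 of 16 such lists and KRT7 in the other 2, which were the H3K4me1 lists. KRT15 came next in all 14, but their windows share most of their bases, and their places in the order are not independent. KRT17 was last or tied for last in every list except Ishikawa JUN under DMSO, where KRT19, KRT15 and KRT13 had no peak.

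KRT15 had peaks at its main start in all 4 RNAPII lists and both JUN lists of T-47D. It had no peak there in Ishikawa, where RNAPII was not mapped. Its Ishikawa promoter peaks, which were H3K4me3 at 8.90-fold and 8.71-fold together with H3K4me1, JUN under E2 and LSD1, all lay upstream of the main start, toward KRT19. RNAPII covered 89.8% and 60.5% of the KRT15 body under DMSO and 97.2% and 93.2% under E2. Over KRT19 it covered 100% in 3 lists and 96.8% in E2 replicate 1, and over KRT18 between 87.3% and 100%. RNAPII ran from KRT19 into KRT15 as 1 peak in both DMSO lists and in E2 replicate 2. In E2 replicate 1 the KRT19 body held 2 peaks, the higher at 19.5-fold, and a peak 10914 bp wide over KRT15 was 11.8-fold. Cover of KRT15 therefore cannot be told apart from RNAPII that began at KRT19.

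The KRT13 body was free of RNAPII under DMSO. It was covered over 3.75% in E2 replicate 1 and not at all in E2 replicate 2. The KRT13 window nevertheless held 15.7 and 10.8 kb of RNAPII under DMSO and 20.6 and 16.9 kb under E2, most of which lay toward KRT15. KRT13 had no promoter peak of any target in Ishikawa, and 1 in T-47D, of RNAPII E2 replicate 1.

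**Figure D4:**
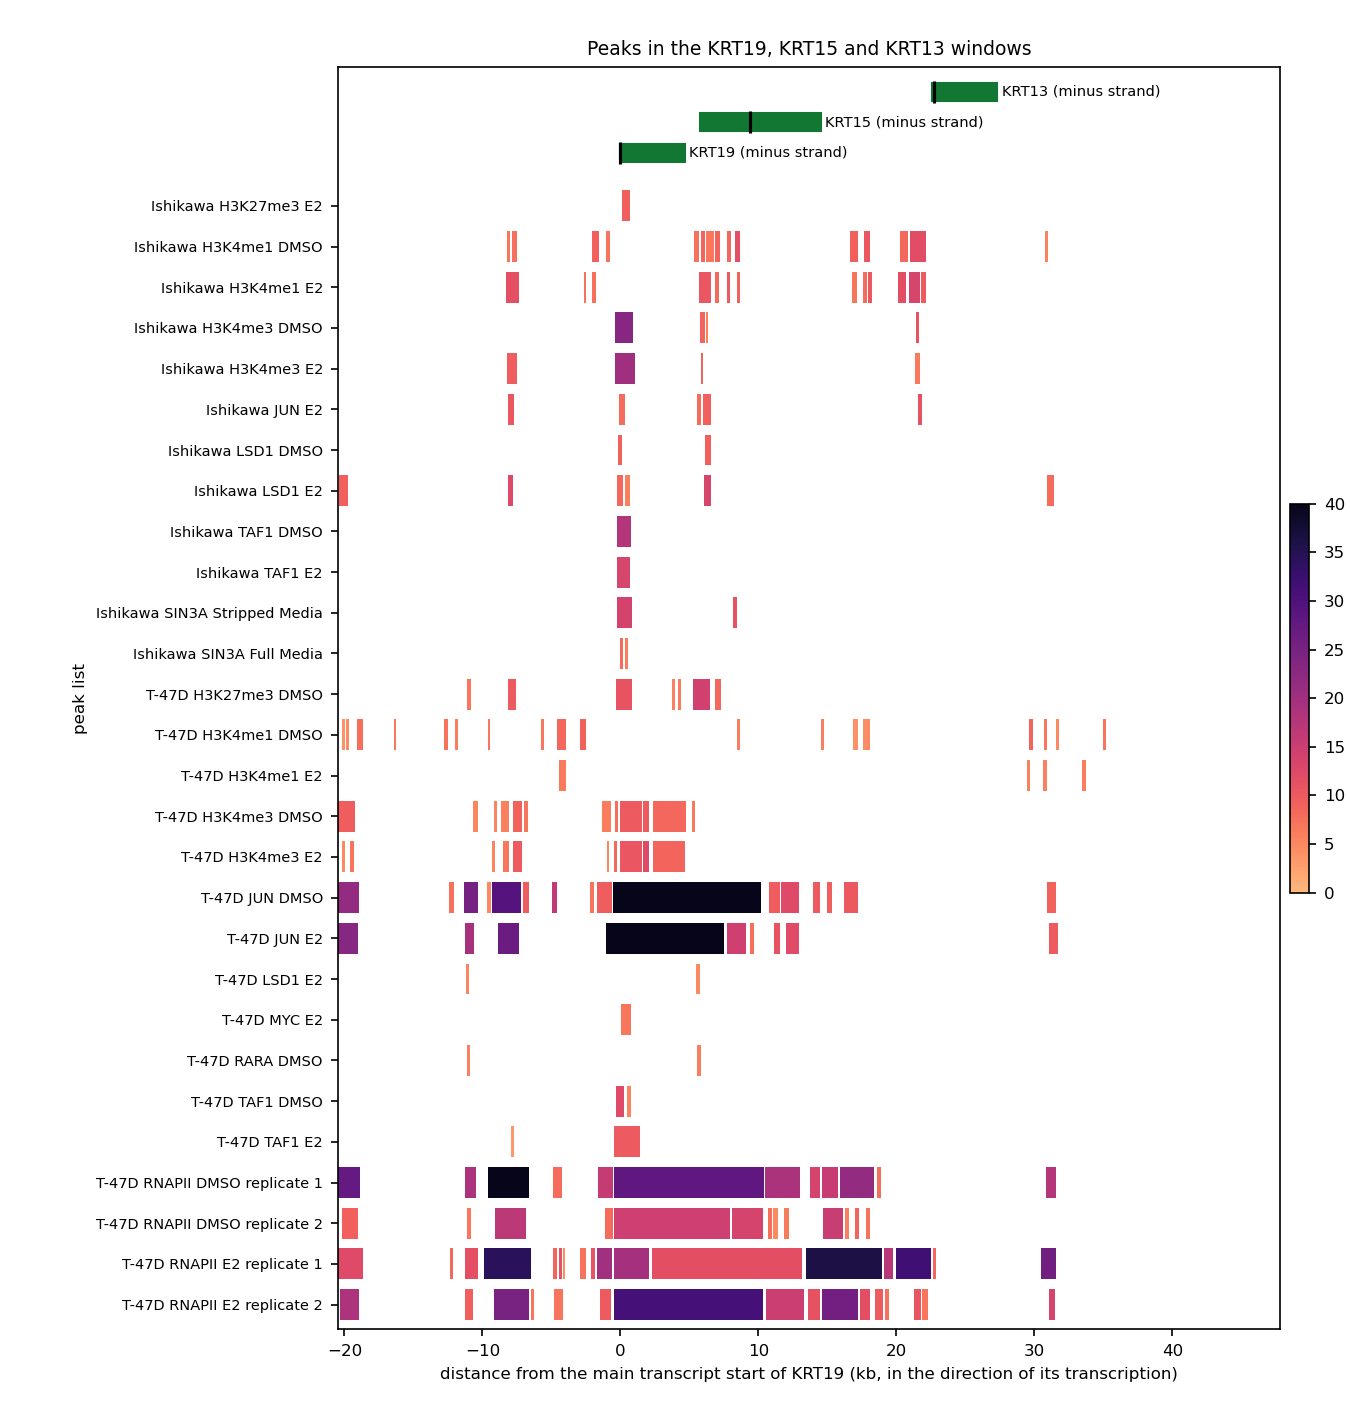
Peaks in the joined KRT19, KRT15 and KRT13 windows in every list that had one, by distance from the KRT19 main start (kb, in the direction of transcription), drawn and coloured as in the KRT7 map. In T-47D the JUN and RNAPII rows hold long bars over KRT19 and KRT15, broken inside KRT19 in RNAPII E2 replicate 1. Bars close to the KRT13 start, at 20 to 23 kb, are present in the RNAPII E2 rows and absent from the RNAPII DMSO rows.

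KRT17, at chr17:39775694-39781094 on the minus strand, was the least marked member. Its window held 5 peaks in 4 Ishikawa lists and none in the 24 T-47D lists. At its main start these were H3K4me1 under DMSO at 6.86-fold, JUN under DMSO at 10.3-fold, JUN under E2 at 17.7-fold and LSD1 under E2 at 11.3-fold. The fifth was a JUN peak under E2 at 8.56-fold inside KRT16. KRT17 was the only member whose main start carried JUN in Ishikawa under DMSO, and it had neither H3K4me3 nor TAF1 there.

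With E2 more JUN and LSD1 peaks were listed at these genes in Ishikawa, as across the genome. LSD1 is a histone demethylase that acts on H3K4me1 and H3K4me2. JUN peaks in the keratin windows numbered 10 with DMSO and 34 with E2 (a ratio of 3.40), where the whole lists held 3768 and 18311, a ratio of 4.86. All 10 DMSO peaks overlapped an E2 peak. When the E2 list was shortened to the length of the DMSO list by −log10 p-value, 6 JUN peaks were left under E2 against 10, so that the direction turned. LSD1 peaks numbered 12 and 31, a ratio of 2.58 against a list ratio of 2.13, and at equal list length 12 and 14.

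Each of the 7 windows had more JUN peaks under E2, as did 54.5% of all gene windows, and each had more LSD1 peaks, as did 49.6% of all gene windows. KRT8 had 5 and 19 JUN peaks and KRT7 had 4 and 7. KRT19, KRT15 and KRT13 had no JUN peak under DMSO and 5, 5 and 3 under E2, most of them shared between their windows. At the start regions, JUN peaks were found at 4 genes under DMSO (KRT7, KRT8, KRT18 and KRT17), where 3.98% of all genes had one, and at 6 under E2, where 32.7% did. LSD1 peaks were found at 4 genes under DMSO (KRT7, KRT8, KRT19 and KRT15), with 16.7% over all genes, and at 6 under E2, with 40.6%. KRT13 was the gene without either under E2. These counts take any annotated start, as do the shares over all genes. At the main start alone, JUN was found under DMSO at KRT17 only and LSD1 at KRT19 only. Under E2 each was found at the main starts of KRT8, KRT18, KRT19 and KRT17. KRT8 and KRT18 shared a 12.8-fold JUN peak under DMSO, so they are not separate observations.

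RARA, the retinoic acid receptor alpha, had no keratin-window peak in Ishikawa under DMSO and 6 under E2, in lists of 137 and 2883 peaks. Those 6 lay at KRT7 (4 peaks, highest 9.39-fold) and in the windows of KRT18 and KRT8 (2 peaks, up to 7.90-fold). More RARA peaks under E2 were thus found in 3 of 7 windows, against 18.7% of all gene windows. The RARA peak in the KRT8 window was also in that of KRT18, so these genes are not separate observations. All 4 at KRT7 fell at the positions shared by other antibodies. MAX, the partner of MYC on DNA, had 7 peaks under DMSO and 4 under E2 in lists of 3368 and 2002. MYC had no keratin-window peak in either Ishikawa list, which held 61 and 2 peaks in all, too few to say that MYC was absent.

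In T-47D, JUN, H3K4me3, H3K4me1, H3K27me3 and RARA had fewer peaks under E2, and TAF1, LSD1, MYC and RNAPII had more. There were 42 JUN peaks with DMSO and 34 with E2, which is 0.810 times as many beside a list ratio of 0.867, and their covered length was 47.3 and 31.8 kb. The number was lower in 5 of 7 windows, against 27.4% of all gene windows, while KRT7 had 9 and 10 and KRT17 had none. That share also counts windows without a DMSO peak, which could not hold fewer. KRT19 and KRT15 each had 15 and 8, almost all of them shared. The single peak over KRT19 was 10694 bp wide at 41.7-fold under DMSO and 8528 bp wide at 53.6-fold under E2. JUN lay at start regions of the same 5 genes under both treatments (KRT7, KRT8, KRT18, KRT19 and KRT15), where 57.8% of all genes had a JUN promoter peak under DMSO and 60.5% under E2.

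H3K4me1 in T-47D numbered 47 peaks with DMSO and 16 with E2, which is 0.340 times as many beside a list ratio of 0.306, and at equal list length 20 and 16. The number was lower in 6 of 7 windows, against 15.3% of all gene windows, with 19 and 9 at KRT7 and 15 and 1 at KRT19. That share also counts windows without a DMSO peak, which could not hold fewer. KRT19, KRT15 and KRT13 share peaks, their joined windows holding 19 under DMSO, and KRT18 shares its DMSO peak with KRT8. The 6 windows are therefore not separate observations. H3K4me3 had 40 and 29 peaks in T-47D and 29 and 32 in Ishikawa. TAF1 had 5 and 6 in T-47D and 18 and 17 in Ishikawa. LSD1 had no peak under DMSO and 3 under E2 in T-47D lists of 42 and 442 peaks, and MYC had none and 1, at the KRT19 start, in lists of 601 and 1822. RARA had 2 weak peaks under DMSO, at 5.84-fold and 5.63-fold, and none under E2, and 2 of the 3 LSD1 peaks lay close to those positions. MAX and SIN3A had none in any T-47D list, the longest of which held 1492 and 649 peaks.

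**Figure D5:**
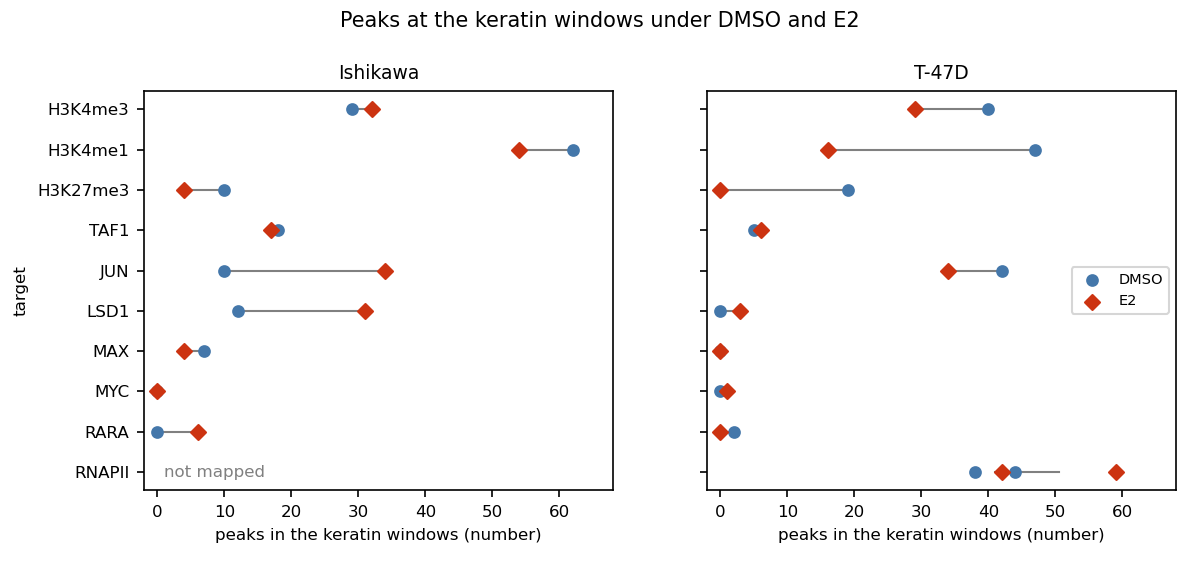
Number of peaks in the 7 keratin windows under DMSO (blue circles) and E2 (red diamonds) for each target, with Ishikawa on the left and T-47D on the right; each symbol is 1 library and the grey line joins the treatments (means for RNAPII). JUN stands at 10 and 34 in Ishikawa and at 42 and 34 in T-47D, and the RNAPII replicates of DMSO, at 44 and 38, overlap those of E2, at 59 and 42.

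H3K27me3, the Polycomb mark of repressed genes, was found where H3K4me3 was. In Ishikawa under DMSO all 10 of its keratin-window peaks overlapped an H3K4me3 peak, as did 81.5% of the list, and under E2 all 4 did, as did 96.3% of the list. In T-47D under DMSO 14 of 19 did, as did 85.7% of the list. The H3K27me3 peaks were narrow, with list medians of 238, 328 and 317 bp in that order. The lists therefore did not show the broad domains known for this mark, and no repressed state of a keratin gene was read from them. In Ishikawa H3K27me3 had 10 and 4 keratin-window peaks in lists of 2199 and 6992, and 1 peak was found in both. In T-47D it had 19 and none, where the E2 list held 107 peaks in all.

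SIN3A in Ishikawa had 21 peaks and 12.3 kb in Stripped Media and 14 peaks and 3.76 kb in Full Media, with lists of 20625 and 16458 peaks. Promoter peaks were at KRT7, KRT8, KRT18 and KRT19 in both media, that is 4 of 7 genes, where 59.5% of all genes had one in Stripped Media and 50.5% in Full Media. At the KRT18 main start SIN3A was 21.3-fold in Stripped Media and 10.6-fold in Full Media, at KRT19 13.9-fold and 7.98-fold, and at KRT8 15.2-fold and 5.55-fold. All 3 starts had the lower value in Full Media, from 1 library per medium. Mean fold enrichment over the keratin-window peaks was 16.2 and 9.22. The whole lists differed in the same way, with a median fold enrichment of 17.1 and 11.4 and a median width of 558 and 353 bp.

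RNAPII, mapped in T-47D alone, gave the only replicated values. The keratin windows held 44 and 38 RNAPII peaks under DMSO (41.0 ± 4.24, SD, n = 2) and 59 and 42 under E2 (50.5 ± 12.0, SD, n = 2), a ratio of means of 1.23. The covered length was 58.9 and 34.9 kb under DMSO and 64.7 and 48.5 kb under E2, a ratio of 1.21. Replicates of 1 treatment differed by 1.69 times under DMSO and 1.33 times under E2 in covered length, which is more than the treatments did. The whole lists held 39371 and 21291 peaks under DMSO and 46282 and 23433 under E2. Left without E2 replicate 1 the ratio of peak numbers was 1.02, and without E2 replicate 2 it was 1.44.

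The loci differed. The joined KRT13, KRT15 and KRT19 windows held 25.3 and 17.9 kb of RNAPII under DMSO and 32.0 and 25.8 kb under E2, and the E2 values were the higher ones. The joined KRT8 and KRT18 windows held 18.7 and 13.0 kb under DMSO and 21.5 and 19.1 kb under E2, again without overlap. Both margins were narrow, and the KRT8 window alone overlapped. The highest fold enrichment did not separate the treatments at either locus. At KRT13, KRT15 and KRT19 it was 53.3 and 16.9 under DMSO and 36.4 and 31.2 under E2. At KRT8 and KRT18 it was 40.6 and 17.4 under DMSO and 28.5 and 20.6 under E2. The KRT7 window held 14.9 and 3.92 kb under DMSO and 11.2 and 3.54 kb under E2, with the treatments overlapping, and the KRT17 window held none. Covered length was above both DMSO lists in both E2 lists at 4 of the 7 genes, KRT18, KRT19, KRT15 and KRT13, against 1.38% of all protein-coding genes. These 4 values come from 2 loci with shared peaks, and KRT19, KRT15 and KRT13 are not separate observations. An RNAPII promoter peak was in all 4 lists at 5 of the 7 genes (KRT7, KRT8, KRT18, KRT19 and KRT15), where 45.6% of all genes had one.

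In the windows 4 RNAPII regions were present in both E2 lists and in neither DMSO list, and none was lost in the same sense. Across the genome 934 such regions were gained and 115 lost. The broadest, at chr17:39662077-39664621, lay between KRT13 and KRT15, centred 1.49 kb upstream of the KRT13 main start, with fold enrichments of 31.9 and 10.8. A neighbour at chr17:39664788-39665434 had 17.3 and 7.30. The other 2 were at chr12:53286021-53286690, 12.5 kb downstream of the KRT8 main start, with 11.5 and 7.59, and at chr12:53341706-53342258, with 12.2 and 6.49. The latter lay just upstream of KRT18 but inside the KRT8 record, with its centre in an untranslated region of KRT8. None of the 4 overlapped a T-47D JUN peak, where 26.9% of all gained regions overlapped one under DMSO and 13.6% under E2; 4 regions are too few to differ from those shares. None held a full estrogen response element anywhere along its 553 to 2545 bp. Such an element lay within 100 bp of 0.279% of the summits of RNAPII E2 replicate 1, a shorter stretch than these regions. The 81 bases around the summit of the broadest region in E2 replicate 1, at chr17:39663120-39663200 of GRCh37, plus strand, are shown because this region appeared with E2. The capitals mark the 11 bases centred on the summit. A match to the AP-1 pattern, TGAATCA, lay 6 bp from it, and its middle base is not that of the consensus. Matches to the pattern, with any base at N, lay within 100 bp of 6.01% of all summits of that list.
KRT13 upstream region: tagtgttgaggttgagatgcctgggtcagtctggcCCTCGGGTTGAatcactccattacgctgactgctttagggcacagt

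Of 48 other keratin genes in the same clusters, few carried H3K4me3 at a promoter, against 67.3% (Ishikawa) and 62.1% (T-47D) of all genes under DMSO. Of 24 type II genes, KRT80, KRT86 and KRT78 had an H3K4me3 promoter peak in Ishikawa under DMSO and KRT80 and KRT86 in T-47D. The KRT86 record starts inside the KRT7 record, so its marks cannot be fully separated from those of KRT7. Of 24 type I genes none had one in Ishikawa, and KRT23 and KRT222 had one in T-47D. KRT80 had in Ishikawa H3K4me3 at 36.7-fold, TAF1 at 62.2-fold and JUN at 54.2-fold under DMSO, and H3K4me3 at 13.1-fold and TAF1 at 5.41-fold in T-47D. KRT5 and KRT14, the pair of basal cells, had no promoter peak of H3K4me3 or TAF1 in either line. Nor did KRT10, KRT1 or KRT20. Promoter peaks of other targets were also listed at KRT5, for H3K4me1 in Ishikawa, and at KRT16, for JUN under E2 in Ishikawa. KRT4 had them for JUN and RNAPII in T-47D. In Ishikawa KRT23 had them for H3K4me1, for JUN under E2 and for SIN3A in Stripped Media.

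The genes that tie keratin filaments to desmosomes and hemidesmosomes, DSP, JUP, PKP1, PKP2, PKP3, PPL, EVPL, PLEC and DST, were mostly marked by H3K4me3. An H3K4me3 promoter peak under DMSO was present at 9 of 9 in Ishikawa and at 8 of 9 in T-47D, where PKP1 was the one without, beside 67.3% and 62.1% of all genes. TAF1 promoter peaks under DMSO were at 9 of 9 in Ishikawa and at 5 of 9 in T-47D, where PKP1, PKP2, PKP3 and DST had none, beside 59.9% and 23.0% of all genes. Desmoplakin, DSP, had H3K4me3 at 31.7-fold in Ishikawa and 16.3-fold in T-47D, and RNAPII promoter peaks in all 4 lists.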

How the data were processed

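ChIP-seq peak lists of 45 libraries were used, and the 4 input libraries were not used here. The keratin genes and all gene lists were chosen with earlier results of these data known. Per the submitters' processing notes, reads were aligned with Bowtie 1.1.2 to hg19, which is GRCh37, and peaks were called with MACS2 2.1.0.20140616 in each library. The authors deposited for each peak a score, which was 10 times the −log10 p-value cut to a whole number, the fold enrichment at the summit as a ratio over local background, the −log10 p-value and the −log10 q-value. Per the methods of the study, reads with more than 1 reportable placement were discarded. No deposited −log10 p-value was below 10. Read depth was not given in the sources used here, so no interval for depth is given.

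Computed here were overlaps of at least 1 bp with each gene window (GENCODE release 44 on GRCh37) and with promoters, taken as 250 bp either side of any annotated transcript start. Python 3.11.15 with numpy 2.4.6 and pandas 2.3.3 was used, and scipy 1.17.1 gave exact 95% binomial intervals, which cover counting error only. Overlaps were tested on simulated peaks. Groups came from the sample labels. Named genes were the 7 members, other keratins with an H3K4me3 or TAF1 promoter peak, linkers peaked in 1 line alone, the strongest peak per member and line, RNAPII regions gained or lost in both replicates, and the 3 genes most like each member by Pearson r of log2(covered bp + 1). Basal keratins and others without a peak were named after their values were seen. Alternatives were fold enrichment of at least 10, −log10 q of at least 20, equal list length, flanks of 5 and 50 kb, covered length, wider or single starts, and each RNAPII library left out.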

Additional observations from a re-analysis of the deposited data

Results flagged for a closer look

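The number of peaks in the keratin windows as deposited differed in opposite directions under E2 in the 2 lines for 4 targets, each from 1 library per group, and none of these differences was tested. At equal list length the opposition was absent for JUN (10 and 6 in Ishikawa, 39 and 34 in T-47D), H3K4me3 (29 and 26, 34 and 29) and TAF1 (16 and 17, 5 and 5). It was also absent at a fold enrichment of at least 10 for H3K4me3 (18 and 17, 5 and 4) and TAF1 (10 and 11, 2 and 3), and H3K4me3 in covered length was lower under E2 in Ishikawa too (23.8 and 21.7 kb). For JUN the change in Ishikawa (10 to 34) minus that in T-47D (42 to 34) was 32 peaks, where the T-47D lists labelled JUN overlapped RNAPII. For H3K4me3 it was 14 peaks, from 29 to 32 in Ishikawa and from 40 to 29 in T-47D. For RARA it was 8 peaks, from 0 to 6 and from 2 to 0, and the lists held 137 and 2883 peaks in Ishikawa. For TAF1 it was -2 peaks, from 18 to 17 and from 5 to 6.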

How the results depend on the processing

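Each group but RNAPII was 1 library, and peak numbers depend on depth, which is not known. H3K4me3 promoter counts fell to 3 in both Ishikawa lists and to 2 in T-47D under E2 when the MANE Select start alone was used, a setting chosen after seeing the data, and to 2 in T-47D under E2 at the 5′ end of the gene record. The other H3K4me3 counts stayed within 1.5 times. Targets with more peaks under E2 numbered 4 of 9 in Ishikawa and 4 of 10 in T-47D, or 4 without JUN. In T-47D the number was 2 at a fold enrichment of at least 10, 2 at a −log10 q-value of at least 20 and 1 at equal list length. The RNAPII ratio of 1.23 ranged from 1.02 to 1.44 with 1 library left out. Of the peak numbers by pair, Ishikawa JUN reversed at equal list length, where 37.5% of the peaks came from the E2 list against 77.3%; the cause was not tested. Of 108 values by pair and alternative, 102 stayed within the 95% interval of the main share, 5 moved and 1 reversed. A value was called reversed only where that interval lay wholly on 1 side of an even split. Pairs with few or nearly equal peak numbers therefore could not be called reversed, and their wide intervals held most values. Ishikawa H3K4me3 and TAF1 also changed direction at equal list length, inside their intervals. No paired test was run, because the genes were chosen with these values known. The labels number the RNAPII replicates but do not say that equal numbers were paired. RNAPII libraries of the same replicate number gave E2 to DMSO ratios of 1.34 and 1.11 in peaks, and, in covered length, above 1 in both over all windows and 0.757 and 0.903 at KRT7.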

Other observations

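Genes whose windows were covered most like a member over the 45 lists were found by Pearson r of log2(covered bp + 1), given as a description with no p, since all genes share the same libraries and the median r over all genes was already 0.575 for KRT7, 0.673 for KRT8, 0.691 for KRT18, 0.663 for KRT19 and 0.513 for KRT13. KRT7 was most like SEMA3F (r 0.985), DNAJC5B and TTC7B. KRT8 was most like C6orf132 (r 0.974), MFSD5 and PRSS8, and KRT18 most like ARID1B (r 0.993), SULT2B1 and ZNRF1. KRT19 and KRT15 shared REXO4 (r 0.953 for both), HSPB1 and S100A13. KRT13 was most like TMEM45B (r 0.890), CAMK1D and ARHGAP40, and KRT17 was covered in 4 lists only and was not compared. Among the members themselves the highest value was that of KRT19 with KRT15, 1.00, whose windows overlap, and that of KRT8 with KRT18, 0.949, whose windows also overlap. KRT7 and KRT8, which do not overlap, had 0.877, and KRT19 and KRT17 had 0.085.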
